A study of Mus musculus with 8 samples.

Results

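The genes described here are the 7 that code for the cytosolic sensors of double-stranded RNA and their closest partners, chosen by name from the 55487 genes of the count table: Ddx58, Ifih1 and Dhx58 (the RIG-I-like receptors), Mavs (their adaptor), Eif2ak2, Zbp1 and Adar. They were followed in 8 tumors of Lewis lung carcinoma (LLC), a mouse lung carcinoma line, by bulk RNA-seq of polyadenylated RNA. They were compared for their level in each tumor, the difference between genotypes and the way they varied together. The 4 tumors of the first genotype grew from wild-type LLC cells, and the 4 of the second from LLC cells labelled Ago2 knock-out (ΔAgo2).

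Both genotypes were implanted under the skin of female, syngeneic C57BL/6J mice, which were bought at 6 to 8 weeks of age and carried intact Ago2 themselves, and the tumors were collected on day 12, with no drug given in the labels. The ΔAgo2 cells had received a CRISPR guide by lentivirus and were selected with puromycin and sorted as single cells, and those implanted came from 1 clone, so the effect of the gene and the particulars of that clone cannot be told apart. Each tumor holds both LLC cells and the host's leukocytes, fibroblasts and vessels. In such bulk samples, fewer cells of a type and less RNA per cell cannot be told apart.

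RIG-I and MDA5 are helicases that bind double-stranded RNA in the cytosol, the former preferring short RNA with a 5′ triphosphate and the latter long duplexes, and both pass the signal to MAVS on the mitochondrial surface, from where TBK1 and IRF3 switch on type I interferon. LGP2, PKR and ZBP1 read the same kind of ligand with other outcomes: LGP2 tunes the other helicases, PKR halts translation by phosphorylating eIF2α, and ZBP1 leads to RIPK3-dependent cell death. ADAR edits adenosine to inosine in duplex RNA, which keeps self RNA from being read by MDA5, PKR and ZBP1. Most of these genes are themselves interferon-stimulated, through an interferon-stimulated response element (ISRE), whereas Mavs is regarded as constitutive.

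Because most of the sensors are interferon-stimulated, the stretch from 250 bases before to 50 bases after each annotated start was read from RefSeq (mouse build GRCm38.p6) and searched on both strands for an ISRE core, GAAANNGAAA, and for the shorter IRF element it contains, AANNGAAA. Windows were held for 5 of the 7 sensors (7 windows, 3 of them for Adar); those of Dhx58 and Zbp1 were not analysed here. The stretches that held a match are printed 5′ to 3′ on the strand of the gene, in lower case, with the match in capitals. Positions are counted from the annotated start, which is 0.
Ifih1, chr2:62646206-62646235, minus strand, ISRE core at bases 32 to 41: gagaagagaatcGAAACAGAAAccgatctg
Ddx58, chr4:40239804-40239833, minus strand, ISRE core read on the opposite strand at bases 2 to 11: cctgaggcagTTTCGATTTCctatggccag
Ddx58, chr4:40239866-40239895, minus strand, IRF element at bases -59 to -52: tctaggttcagAAACGAAActggatccccg
Eif2ak2, chr17:78882535-78882564, minus strand, ISRE core at bases 18 to 27: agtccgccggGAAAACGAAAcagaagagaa
Adar, chr3:89730736-89730765, plus strand, IRF element at bases 29 to 36 of the third annotated start: ccttttcaaggAAACGAAAgtgaactctgg

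The ISRE core was present in the windows of Ifih1, Ddx58 and Eif2ak2, where 3.17% of the windows of all genes tested and 3.44% of all windows held one. The shorter IRF element, the only match of Adar, is common: 18.6% of the windows of genes tested and 23.9% of all windows held one. The same 8 letters, AAACGAAA, occurred upstream of Ddx58, inside the ISRE core of Eif2ak2 and at the third start of Adar, and in 0.705% of the windows of genes tested. That string was picked out after the 3 windows had been read. The other 2 Adar windows and the Mavs window held no match to either pattern. Each is a match of letters in a short window and not a measured binding site.

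The libraries held between 7903288 and 268564145 counts, the shallowest being wild-type tumor 4 and the deepest ΔAgo2 tumor 4. Ago2 itself did not check the labels: its level was 129.9, 195.0, 151.3 and 138.5 CPM (counts per 1000000 of the library total, scaled by the trimmed mean of M-values) in the wild-type tumors and 118.3, 354.7, 215.0 and 270.1 in the tumors labelled ΔAgo2 (log2 difference 0.64, SE 0.30, adjusted p = 0.205 by edgeR). The difference was 0.85 without ΔAgo2 tumor 1 (adjusted p = 0.0441) and 0.38 without ΔAgo2 tumor 2, and 0.41 with the GC trend and 0.11 with the length trend of the libraries removed. A CRISPR edit need not remove the transcript, and host cells keep the gene. The epithelial keratins Krt8 and Krt18 were at 231 to 501 and 257 to 845 CPM, and their cell of origin was not tested. Other epithelial markers were far lower: Epcam 0.736 to 4.36, Cdh1 2.44 to 14.0, Krt7 0.149 to 1.51, Krt19 2.02 to 9.89 and Muc1 0.860 to 1.76 CPM. The lung lineage markers Nkx2-1, Sftpb and Sftpc were at 0 or below 0.05 CPM in each tumor. Libraries also differed in how they covered long and GC-poor genes. Genes with over 5000 exonic bases stood 0.60 below those under 2000 bases (log2 deviation from the all-library mean, difference of medians -0.60) in wild-type tumor 4 and at -0.79 in ΔAgo2 tumor 1, against 0.68 in ΔAgo2 tumor 2. Genes under 45% GC against those over 52% stood at -0.97 and -1.24 in wild-type tumors 2 and 4 and at 0.90 and 0.69 in ΔAgo2 tumors 2 and 4. Over the 16061 genes tested, the genotype difference correlated with GC content at Spearman's rho = -0.561 and with exonic length at 0.163. These are descriptions across genes that share libraries.

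All 7 sensors passed the filter on low counts, and all 7 had a positive log2 difference in ΔAgo2 tumors, where 52.5% of all genes tested did. The median over the sensors was 0.79, against 0.04 over all genes tested. With edgeR's quasi-likelihood test and Benjamini-Hochberg adjustment over all 16061 genes, 1 of 7 sensors, Zbp1, was called higher at an adjusted p of 0.05, where the background was 1.36% of genes called higher. Levels of 2 sensors, Zbp1 and Dhx58, did not overlap between genotypes, where 8.05% of all genes had every ΔAgo2 tumor above every wild-type tumor. An unadjusted p under 0.05 with a higher level was reached by 5 of 7 sensors and 13.7% of all genes. The log2 differences of Mavs and Adar were 0.08 and 0.04.

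**Figure D1:**
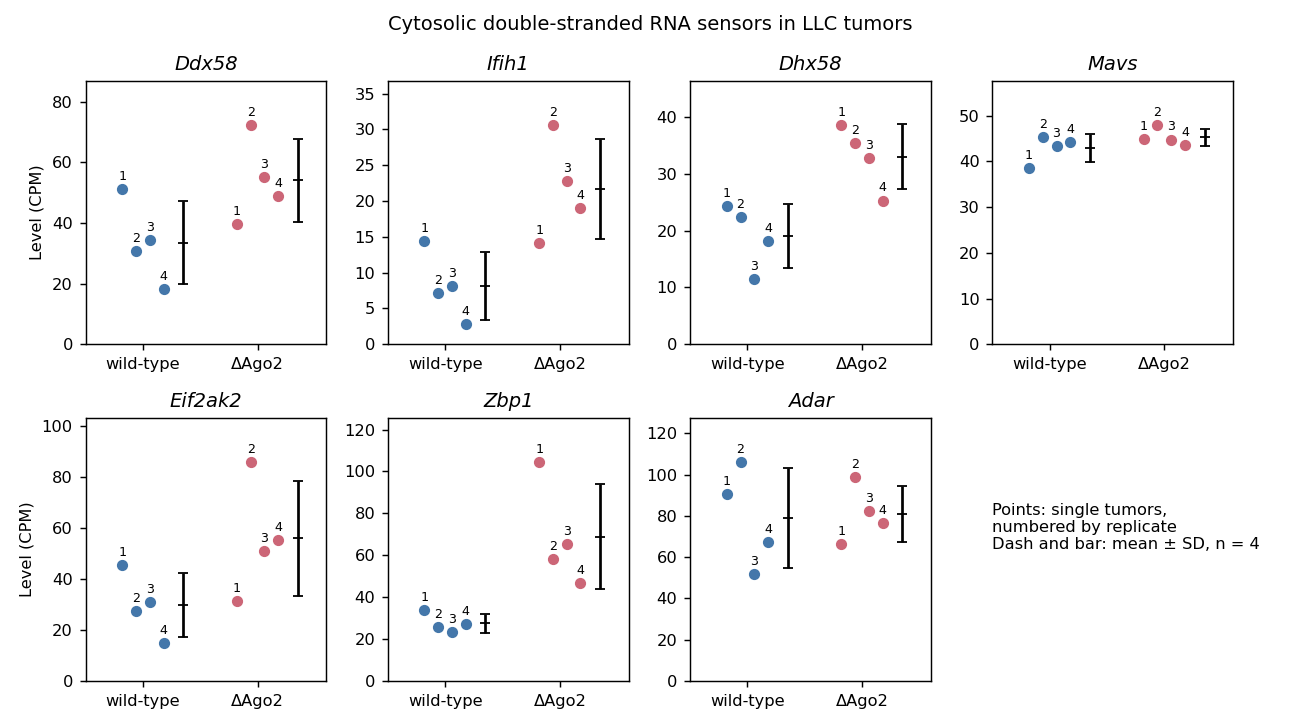
Level of each sensor (CPM, vertical axes starting at 0) in 4 wild-type and 4 ΔAgo2 tumors. Each point is 1 tumor, numbered by replicate, and the bar beside it is the mean ± SD (n = 4). The 2 colors separate without overlap for Zbp1 and Dhx58, and lie at the same height for Mavs.

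Ddx58 codes for RIG-I and lies on chr4:40203773-40239828, minus strand (ENSMUSG00000040296.15). Its level was 51.1, 30.6, 34.3 and 18.1 CPM in wild-type tumors 1 to 4 and 39.7, 72.4, 55.1 and 49.1 CPM in ΔAgo2 tumors 1 to 4. ΔAgo2 tumors 2 and 3 were above all wild-type tumors, and ΔAgo2 tumors 1 and 4 were within their range. The means were 33.5 ± 13.6 and 54.1 ± 13.8 CPM (SD, n = 4 each), a log2 difference of 0.68 (SE 0.31, 95% interval 0.01 to 1.36) that did not pass (adjusted p = 0.182, edgeR).

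Ifih1 codes for MDA5 and lies on chr2:62595798-62646255, minus strand (ENSMUSG00000026896.14). Its level was 14.4, 7.20, 8.07 and 2.87 CPM in the wild-type tumors and 14.1, 30.6, 22.8 and 19.0 CPM in the ΔAgo2 tumors. Wild-type tumor 1 and ΔAgo2 tumor 1 were at nearly the same level, and the other 3 ΔAgo2 tumors lay above all wild-type tumors. The value of wild-type tumor 4 rests on 20 counts. The means were 8.13 ± 4.75 and 21.6 ± 6.98 CPM (SD, n = 4 each), the largest log2 difference among the sensors (1.38, SE 0.41, 95% interval 0.47 to 2.29), which did not pass (adjusted p = 0.0841, edgeR). It did pass with DESeq2's Wald test (adjusted p = 0.0137) and without wild-type tumor 1 (1.81, adjusted p = 0.0374) or ΔAgo2 tumor 1 (1.53, adjusted p = 0.049), within a range of 0.0137 to 0.294 over 25 alternatives. Ifih1 belongs to the interferon genes that the study singled out from these same tumors, so its direction here is not independent evidence. The study also reported higher Ifih1 in cultured ΔAgo2 LLC cells, which were not analysed here.

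Dhx58 codes for LGP2, which lacks the signalling domains of the other 2 helicases, and lies on chr11:100694884-100704271, minus strand (ENSMUSG00000017830.15). Its level was 24.2, 22.3, 11.5 and 18.2 CPM in the wild-type tumors and 38.6, 35.4, 32.7 and 25.3 CPM in the ΔAgo2 tumors. The genotypes did not overlap, although ΔAgo2 tumor 4 was only just above wild-type tumor 1. The log2 difference was 0.79 (SE 0.26, 95% interval 0.22 to 1.37, means 19.1 ± 5.65 and 33.0 ± 5.67 CPM, n = 4 each) and did not pass (adjusted p = 0.102, edgeR; 0.0483 to 0.246 over the alternatives). An antisense gene, Dhx58os, covers 2637 of its bases and held 55 counts over all libraries, and whether the counting used strand is not given in the sources used here.

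Mavs lies on chr2:131234063-131248025, plus strand (ENSMUSG00000037523.13). Its level was 38.6, 45.4, 43.5 and 44.3 CPM in the wild-type tumors and 44.8, 48.0, 44.8 and 43.5 CPM in the ΔAgo2 tumors. The ranges overlapped and the spread was the smallest of the 7 sensors. The log2 difference was 0.08 (SE 0.16, 95% interval -0.29 to 0.44, adjusted p = 0.784, edgeR), so that a change between 0.821-fold and 1.36-fold lies within the interval.

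Eif2ak2 codes for PKR and lies on chr17:78852564-78882573, minus strand (ENSMUSG00000024079.4). Its level was 45.3, 27.5, 30.8 and 14.8 CPM in the wild-type tumors and 31.3, 86.0, 51.0 and 55.1 CPM in the ΔAgo2 tumors. ΔAgo2 tumors 2, 3 and 4 were above all wild-type tumors, and ΔAgo2 tumor 1 was below wild-type tumor 1. The log2 difference was 0.91 (SE 0.36, 95% interval 0.11 to 1.71, means 29.6 ± 12.5 and 55.8 ± 22.6 CPM, n = 4 each) and did not pass (adjusted p = 0.147, edgeR). A long noncoding RNA on the other strand, Gm26637, shares 532 of its bases and held 456 counts over all libraries.

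Zbp1, on chr2:173206612-173218923, minus strand (ENSMUSG00000027514.14), codes for the sensor of Z-form nucleic acids. Its level was 34.0, 25.6, 23.3 and 27.4 CPM in the wild-type tumors and 104.7, 58.0, 65.6 and 46.9 CPM in the ΔAgo2 tumors. Every ΔAgo2 tumor was above every wild-type tumor, and ΔAgo2 tumor 1, the lowest of its genotype for Ddx58, Ifih1, Eif2ak2 and Adar, was the highest for Zbp1. The means were 27.6 ± 4.58 and 68.8 ± 25.1 CPM (SD, n = 4 each), a 2.49-fold rise (log2 1.32, SE 0.26, 95% interval 0.74 to 1.90) with an adjusted p of 0.0278 (edgeR). The call was lost without wild-type tumor 2 (adjusted p = 0.09996), wild-type tumor 4 (0.0727), ΔAgo2 tumor 2 (0.0601) or ΔAgo2 tumor 3 (0.0707), and the adjusted p ran from 4.49e-04 to 0.09996 over 25 alternatives, with log2 differences from 0.84 to 1.48.

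Adar lies on chr3:89715022-89753446, plus strand (ENSMUSG00000027951.16), and its counts sum a constitutive and an interferon-inducible isoform that start at different promoters. Its level was 90.6, 106.4, 51.9 and 67.4 CPM in the wild-type tumors and 66.5, 98.8, 82.4 and 76.6 CPM in the ΔAgo2 tumors. All ΔAgo2 tumors lay inside the wild-type range. The log2 difference was 0.04 (SE 0.25, 95% interval -0.50 to 0.58, adjusted p = 0.940, edgeR), and its sign turned under 7 of 25 alternatives, upper-quartile scaling (-0.04) among them. The opposite-strand gene Chrnb2 overlaps 7252 of its bases and held 233 counts in all.

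The GC and length trends of the libraries moved with several of these results. Ifih1, Eif2ak2 and Ddx58 have the lowest GC contents of the 7 sensors (42.8%, 43.9% and 46.6%, against 51.0% to 53.9% for the others), and with Adar they are the ones over 5000 exonic bases. When each library's GC trend was removed, the log2 difference became 0.84 for Ifih1, 0.40 for Eif2ak2 and 0.38 for Ddx58, none of which passed, while Zbp1 kept 1.28 (adjusted p = 0.0209) and Dhx58 reached 0.95 (adjusted p = 0.0483). Removing the length trend gave 1.11 for Ifih1, 0.45 for Ddx58, 1.27 for Zbp1 (adjusted p = 0.0185) and -0.26 for Adar.

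How many sensors were called depended on the setting, as did the share of all genes called higher. Zbp1 and Ifih1 were called with DESeq2's Wald test (6.99% of all genes called higher), with limma voom (14.9%), without a count filter (1.70%), with wild-type tumor 1 left out (1.56%) and with ΔAgo2 tumor 1 left out (6.01%). Zbp1 and Dhx58 were called with the GC correction (1.34%), and Zbp1 alone with the length correction (2.40%) and without both wild-type tumor 4 and ΔAgo2 tumor 1 (2.61%). No sensor was called without wild-type tumor 2 (0.158%), wild-type tumor 4 (0.467%), ΔAgo2 tumor 2 (0.258%) or ΔAgo2 tumor 3 (0.309%).

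**Figure D2:**
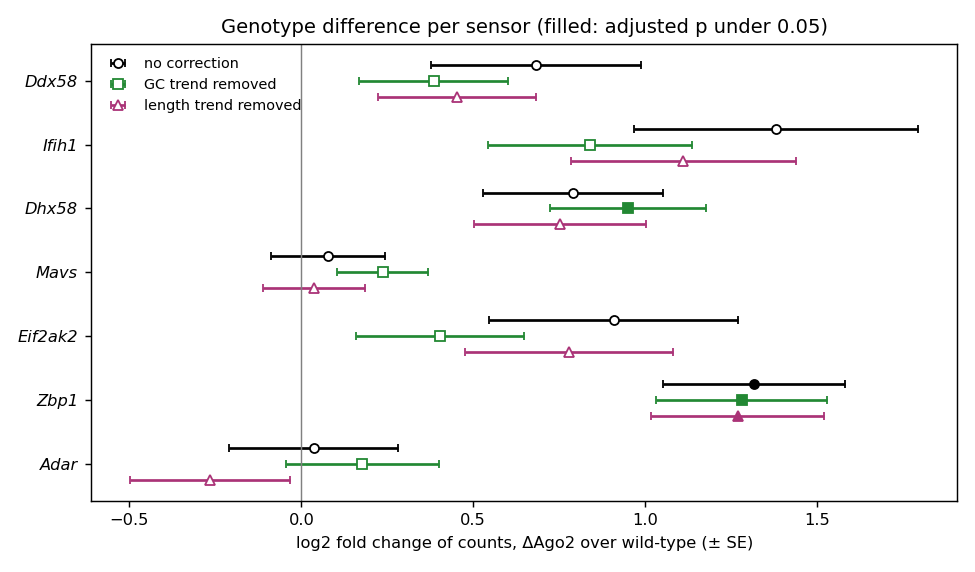
Log2 difference of counts between ΔAgo2 and wild-type tumors for each sensor (horizontal axis, ± SE) from edgeR without correction (circles), with the GC trend of the libraries removed (squares) and with their length trend removed (triangles). Filled symbols passed an adjusted p of 0.05: Zbp1 was filled in all 3 fits and Dhx58 in the GC-corrected one.

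Levels can be set against each other only per length, and the deposited TPM values (transcripts per 1000000) were used for this. In wild-type tumors the order was Mavs (33.9 ± 5.42 TPM, SD, n = 4), Adar (26.1 ± 10.1), Zbp1 (20.7 ± 4.97), Eif2ak2 (15.9 ± 7.99), Dhx58 (15.5 ± 5.61), Ddx58 (13.1 ± 6.37) and Ifih1 (2.78 ± 1.77). In ΔAgo2 tumors Zbp1 came first (57.3 ± 8.54 TPM), followed by Mavs (42.1 ± 9.58), Eif2ak2 (35.8 ± 19.9), Adar (31.7 ± 10.9), Dhx58 (30.8 ± 6.41), Ddx58 (24.6 ± 10.3) and Ifih1 (8.56 ± 4.09). Only the step from Ddx58 down to Ifih1 exceeded the spread of its own ratio over tumors in either genotype, at log2 2.37 ± 0.35 in wild-type and 1.56 ± 0.11 in ΔAgo2 tumors (SD, n = 4 each). For the other neighbours in either order, the mean log2 ratio was within its SD. Even so, Mavs stood above Adar and Zbp1 above Eif2ak2 in 4 of 4 wild-type tumors, and Dhx58 above Ddx58 in 4 of 4 ΔAgo2 tumors. Zbp1 stood above Mavs in 4 of 4 ΔAgo2 tumors and below it in 4 of 4 wild-type tumors.

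Ratios within a tumor do not depend on how libraries are scaled, and 4 were compared between genotypes by permuting the tumor labels over all 70 assignments (exact, two-sided), for which the smallest possible p is 0.0286. The ratio of Ifih1 to Adar, the sensor to the editor that shields its ligands, was 0.158, 0.0673, 0.155 and 0.0425 in the wild-type tumors and 0.210, 0.308, 0.275 and 0.247 in the ΔAgo2 tumors. It was higher in 4 of 4 ΔAgo2 tumors than in any wild-type tumor, 2.82-fold on the mean of log2 ratios (exact permutation p = 0.0286). After adjustment over the 4 ratios the p was 0.114, the least that a single fully separated ratio can reach. The adjusted value therefore could not pass for this ratio alone and decides nothing. The ratio of Ddx58 to Mavs differed by 0.67 on the log2 scale (exact permutation p = 0.143, adjusted 0.190), that of Eif2ak2 to Mavs by 0.86 (exact permutation p = 0.143, adjusted 0.190) and that of Ifih1 to Dhx58 by 0.74 (exact permutation p = 0.200, adjusted 0.200). These 3 ratios overlapped between genotypes. Ifih1 and Adar also differ in GC content, 42.8% against 53.4%, and their ratio was lowest in wild-type tumors 2 and 4, the libraries in which GC-poor genes were low.

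Within each genotype the sensors fell into different patterns. After subtraction of the genotype mean of log2 CPM, Ddx58 and Ifih1 moved together over the 8 tumors (r = 0.995), and Eif2ak2 moved with both (r = 0.965 with Ddx58 and 0.949 with Ifih1). All 3 were highest in wild-type tumor 1 and ΔAgo2 tumor 2 and lowest in wild-type tumor 4 and ΔAgo2 tumor 1. Zbp1 did not follow them (r = -0.10 with Ddx58, -0.08 with Ifih1 and -0.33 with Eif2ak2), and was closest to Dhx58 (r = 0.645), which in turn was closest to Adar (r = 0.712). Mavs had r between -0.39 and 0.08 with the others. These correlations describe 8 libraries that share their depth, GC and length trends, and the low points of the first 3 genes are the 2 libraries in which long genes were lowest.

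**Figure D3:**
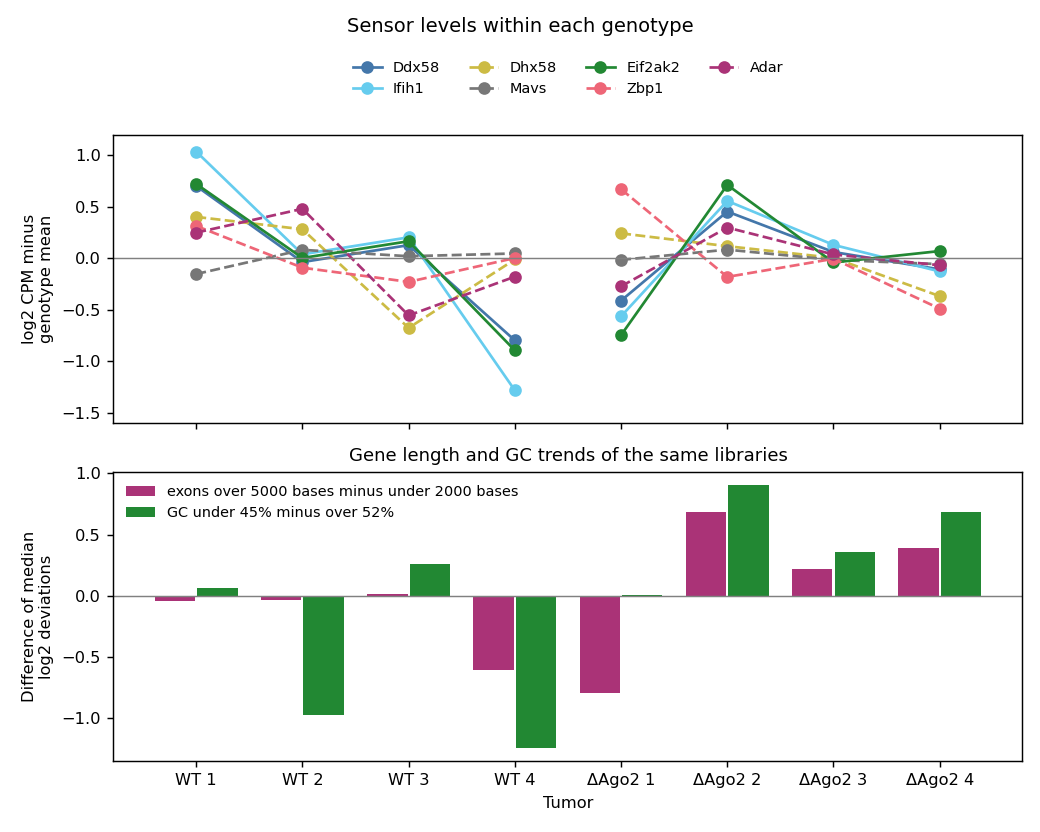
Upper panel: log2 CPM of each sensor minus the mean of its genotype in each of 8 tumors, with solid lines for Ddx58, Ifih1 and Eif2ak2 and dashed lines for the other sensors. Lower panel: difference of median log2 deviations between long and short genes and between GC-poor and GC-rich genes in the same libraries, negative in wild-type tumor 4 where the solid lines are lowest.

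Among 13073 genes compared over the 8 tumors, the genes most like each sensor by the same measure were Brd9 (r = 0.989) and Slfn8 (0.987) for Ddx58, and Ifit2 (0.992) and Acot11 (0.987) for Ifih1. Those for Eif2ak2 were Senp1 (0.995) and Dgcr8 (0.995), and those for Dhx58 were Itgax (0.976) and Xaf1 (0.963). Zbp1 was nearest to Hcls1 (0.980) and Bcl2a1d (0.976). Adar was nearest to Stat2 (0.969) and Top3a (0.967), and Mavs to Ctdspl (0.950) and Ggcx (0.931). Each is picked as the highest among 13073 correlations over 8 libraries that share their depth, GC and length trends. The cell of origin of the sensors was not tested.

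The marker lists of host cells were set beside these levels. Counts of list genes, here and in the paragraphs that follow, are in either direction and stand against 3.49% of all genes called by edgeR, 26.7% at an unadjusted p under 0.05, 14.2% called by DESeq2 and 27.9% called by limma voom. The sum of 10 pan-leukocyte markers was 965 to 1350 CPM in wild-type and 935 to 1520 CPM in ΔAgo2 tumors, with 0 of 10 called by edgeR (1 at an unadjusted p under 0.05, 1 by DESeq2 and 1 by limma voom). Its members went both ways: 7 of 10 were positive, Ptprc (CD45) among them at 1.12 on the log2 scale without overlap (adjusted p = 0.0785, edgeR), while the abundant Coro1a was at -0.87 (adjusted p = 0.263, edgeR). ΔAgo2 tumor 1 had both the highest leukocyte sum and the highest Zbp1. As a share of that sum, in CPM over CPM, Zbp1 was 2.81%, 2.24%, 2.42% and 2.03% in wild-type tumors and 6.89%, 5.003%, 6.30% and 5.01% in ΔAgo2 tumors, which did not overlap. Against Ptprc alone, the ratio of Zbp1 in CPM was 1.03, 1.11, 0.905 and 1.97 in wild-type and 2.95, 0.694, 1.603 and 0.944 in ΔAgo2 tumors, and the genotypes overlapped. The separation of Zbp1 thus depended on which leukocyte measure it was set against. Both measures were added after the levels had been seen and were not tested. The macrophage sum ran from 2101 to 2632 CPM in wild-type and from 1812 to 3815 in ΔAgo2 tumors, and the T cell sum from 9.42 to 26.1 and from 10.4 to 46.9 CPM, both overlapping. The sum of plasmacytoid dendritic cell markers did not overlap (266 to 348 against 363 to 557 CPM), but its defining marker Siglech was below 1 CPM in every tumor, and Bst2, also an interferon-stimulated gene, and Tcf4 made up most of it. The NK sum was 8.60 to 25.5 and 20.9 to 36.6 CPM, with 0 of 10 called by edgeR (4 at an unadjusted p under 0.05, and 0 by DESeq2 and by voom). Fibroblast markers summed to 4940 to 7275 CPM in wild-type and 2323 to 4677 CPM in ΔAgo2 tumors, skeletal muscle markers to 289 to 4129 and 55.7 to 238 CPM, and neither pair overlapped, with 1 of 10 fibroblast genes called lower by edgeR (6 at an unadjusted p under 0.05, 3 by DESeq2 and 5 by voom) and 0 of 10 muscle genes called by edgeR (10 at an unadjusted p under 0.05, 3 by DESeq2 and 1 by voom). Keratinocyte markers, of which 1 of 10 was called higher by edgeR (4 at an unadjusted p under 0.05, 3 by DESeq2 and 5 by voom), summed to 14.4 to 568 and 452 to 888 CPM, and endothelial markers to 159.4 to 244 and 156 to 207 CPM. The part of cell composition in the sensor levels was not tested.

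The genes around the sensors were described through 9 lists of 138 distinct genes, of which 119 passed the count filter. Among them 3 were called by edgeR, all higher: Mex3c, Rsad2 and Oas2, where 3.49% of all genes were called in either direction. This was 2.52% of the 119 genes, where 1.36% of all genes were called higher. The count was 23 with DESeq2's Wald test (19.3%, against 14.2% of all genes) and 34 with limma voom (28.6%, against 27.9% of all genes). The voom share was thus near its background. The edgeR share lay below the background in either direction and above that of genes called higher, and it rests on 3 genes.

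Of the 23 regulators of the RIG-I-like receptors and MAVS, 15 had a positive difference (median 0.51 on the log2 scale). By edgeR 1 was called (8 at an unadjusted p under 0.05, 5 by DESeq2 and 8 by voom). Counts of positive genes, here and in the other lists, stand against 52.5% of all genes tested. Mex3c, a ubiquitin ligase that modifies RIG-I, was at 33.2, 32.3, 40.3 and 26.5 CPM in wild-type tumors and 47.1, 101.5, 57.8 and 99.99 CPM in ΔAgo2 tumors. The genotypes did not overlap (log2 difference 1.21, SE 0.28, adjusted p = 0.0435, edgeR), and the call was lost without 6 of the 8 tumors in turn, namely all but wild-type tumor 3 and ΔAgo2 tumor 1. Counting all 25 alternatives, the Mex3c call was lost in 13. The adjusted p ran from 0.00208 to 0.275 over them, and the log2 difference from 0.80 to 1.37. The helicase Ddx60, named after its values were seen, differed more (2.16, SE 0.58) but did not pass (adjusted p = 0.0665, edgeR).

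Downstream of MAVS, 11 of 15 adaptors, kinases and IRFs were positive (median 0.26) and 0 were called by edgeR (4 at an unadjusted p under 0.05, 3 by DESeq2 and 5 by voom). The largest difference was that of Tbkbp1, an adaptor of TBK1, at 139.9, 314.1, 120.1 and 338.1 CPM in wild-type and 91.4, 89.1, 90.2 and 92.3 CPM in ΔAgo2 tumors, lower in 4 of 4 ΔAgo2 tumors than in any wild-type tumor (log2 -1.33, SE 0.33, adjusted p = 0.0523, edgeR). It passed without wild-type tumor 1 (adjusted p = 0.0375) or 3 (0.0226), within a range of 0.00372 to 0.289 over the alternatives. The 2 high wild-type values are those of tumors 2 and 4, in which GC-poor genes were low, and with the GC trend removed the difference was -0.56 (adjusted p = 0.104).

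Of the 14 genes of PKR regulation and the eIF2α pathway, 8 were positive (median 0.41) and 0 were called by edgeR (2 at an unadjusted p under 0.05, 0 by DESeq2 and 3 by voom). Dnajc3, the inhibitor p58IPK of PKR, had the largest difference (0.70, SE 0.29, adjusted p = 0.160, edgeR), which was 0.17 with the GC trend removed. Of the 12 cell death partners of ZBP1, 10 were positive (median 0.26) and 0 were called by edgeR (3 at an unadjusted p under 0.05, 2 by DESeq2 and 1 by voom). Casp1, the inflammasome protease, had the largest difference at 14.4 to 20.2 CPM in ΔAgo2 against 3.58 to 12.3 CPM in wild-type tumors (log2 1.18, SE 0.37, adjusted p = 0.0908, edgeR; 0.0353 without wild-type tumor 1), without overlap. Their summed level did not overlap either, at 381 to 486 CPM in wild-type and 535 to 607 CPM in ΔAgo2 tumors.

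Among RNA editing and double-stranded RNA binding genes, 12 of 15 passed the filter, 9 of them were positive (median 0.33) and 0 were called by edgeR (3 at an unadjusted p under 0.05, 1 by DESeq2 and 6 by voom). Strbp had the largest difference in the uncorrected fit (0.88, SE 0.34, adjusted p = 0.138, edgeR), which was 0.26 with the GC trend and 0.45 with the length trend removed. Adarb1, which codes for ADAR2 and was named after its values were seen, was at 60.6, 72.1, 47.6 and 52.3 CPM in wild-type and 21.3, 38.5, 33.2 and 34.5 CPM in ΔAgo2 tumors, lower in 4 of 4 without overlap (log2 -0.87, SE 0.23, adjusted p = 0.0643, edgeR; 0.0465 without ΔAgo2 tumor 1, and 0.00568 to 0.448 over the alternatives). Of 12 endosomal and other RNA sensors, 9 were positive (median 0.45) and 0 were called by edgeR (2 at an unadjusted p under 0.05, 1 by DESeq2 and 1 by voom), with Tlr8, the endosomal receptor of single-stranded RNA, at 1.00 (SE 0.59, adjusted p = 0.292, edgeR), 0.22 with the GC trend removed and 0.51 without ΔAgo2 tumor 2.

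Interferon transcripts, those of the type II interferon Ifng included, were few. None of 15 interferon genes passed the count filter, and 3 (Ifna12, Ifnl2 and Ifnl3) held 0 counts in all 8 tumors. Ifnb1 held 0 counts in 128543337 wild-type counts, which allows a level of up to 0.0233 CPM, and 6 in 460266864 ΔAgo2 counts, or 0.0130 CPM, so that a difference was not detectable at this depth. Outside Ifng, with 22 counts in wild-type and 90 in ΔAgo2 tumors (0.171 and 0.196 CPM), no interferon gene exceeded 9 counts over all tumors. CPM in this paragraph is taken over the pooled total counts of a genotype, without scaling, so deeper libraries weigh more.

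Of 12 interferon receptors and transducers, 11 passed the filter, 8 of those were positive (median 0.48) and 0 were called by edgeR (3 at an unadjusted p under 0.05, 0 by DESeq2 and 4 by voom). All 20 interferon-stimulated genes that were listed had a positive difference (median 1.19), and 2 of 20 were called by edgeR (14 at an unadjusted p under 0.05, 11 by DESeq2 and 6 by voom, against the shares of all genes given above). The list holds genes that the study singled out from these tumors, Rsad2 among them, and is not independent evidence of direction.

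Rsad2, coding for the antiviral enzyme viperin, was at 26.8, 9.34, 13.0 and 8.46 CPM in wild-type and 51.7, 76.4, 61.5 and 45.6 CPM in ΔAgo2 tumors, a 4.04-fold rise without overlap (log2 2.01, SE 0.36, adjusted p = 0.0177, edgeR). Oas2, which makes the activator of RNase L when bound to double-stranded RNA, was at 16.6, 16.7, 6.16 and 9.17 CPM in wild-type and 24.4, 52.6, 43.9 and 28.0 CPM in ΔAgo2 tumors (log2 1.61, SE 0.37, adjusted p = 0.0435, edgeR), without overlap. The Rsad2 call was lost without wild-type tumor 2 (adjusted p = 0.0689), ΔAgo2 tumor 2 (0.0569) or ΔAgo2 tumor 3 (0.0515), and that of Oas2 without wild-type tumors 2 or 4 or ΔAgo2 tumors 2, 3 or 4 (adjusted p from 0.0882 to 0.131). Counting all 25 alternatives, the Rsad2 call was lost in 6 (adjusted p up to 0.118, log2 difference 1.46 to 2.51). The Oas2 call was lost in 13 (adjusted p up to 0.212, log2 difference 1.38 to 1.86). Summed over the 20 genes, the level was 338 to 647 CPM in wild-type and 676 to 1209 CPM in ΔAgo2 tumors.

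**Figure D4:**
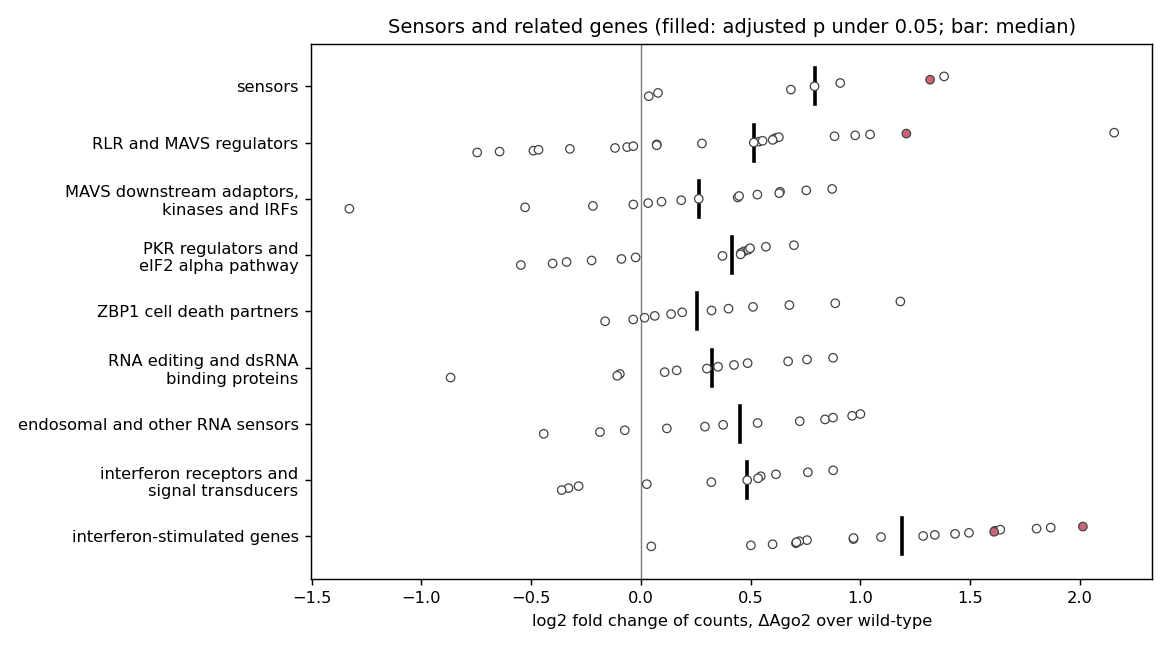
Log2 difference of counts between ΔAgo2 and wild-type tumors (horizontal axis) for the 7 sensors and for each tested gene of 8 related lists. Each circle is 1 gene, filled where it passed an adjusted p of 0.05 (edgeR), and the vertical bar is the median of the list, which was 0.79 for the sensors and 1.19 for the interferon-stimulated genes.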

How the data were processed

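Bulk RNA-seq of 8 tumors (4 wild-type, 4 ΔAgo2) was used, from stranded poly(A) libraries read as pairs of 100 bases. The authors deposited whole-number counts per gene and TPM values. The labels name STAR and mm10. Counting with featureCounts is described for cultured cells and was assumed for tumors. Strand setting and treatment of multi-mapping reads are not given in the sources used here. Identifiers were paired with symbols through GENCODE M21 (99.29% of 55487 with version; Casp1, Isg15 and Mx1 without). Of 2 identifiers for Ddit3, the one with the higher mean count was used.

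Counts were filtered with filterByExpr, scaled by TMM and tested by genotype with edgeR 4.0.16 (glmQLFit, R 4.3.3) on all 8 libraries, with Benjamini-Hochberg adjustment over 16061 genes. CPM carries no prior count, and log2 CPM a prior count of 2. A level of 3 counts over the unscaled total was the limit for a count of 0, which covers counting error only. DESeq2 1.42.0, limma 3.58.1 (voom, and log2 of deposited TPM plus 1 or 0.1), other scalings and filters, thinning, GC and length corrections and leaving out each tumor were alternatives. Ratios were tested with SciPy 1.17.1.

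The genes named were the 7 sensors, Ago2, each called gene of a pathway list or otherwise its largest absolute log2 difference, and for each sensor the 2 genes with the highest correlation of deviations among genes of at least 1 CPM. The gene this rule gives for interferon receptors and transducers is not reported here. Members and lists were chosen with earlier results of these data known. Samples were grouped by labelled genotype, and all carry 1 batch label. Nothing beyond "biological replicate" says how tumors map to mice, so p-values measure the spread between these tumors. Depth ran from 7903288 to 268564145 counts, and the precision of each level follows from it. No pair of libraries of a genotype agreed within sampling noise.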

Additional observations from a re-analysis of the deposited data

How the results depend on the processing

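Of 25 alternatives, 13 left the count of sensors called higher at 1. It was 2 with DESeq2's Wald test, limma voom, no count filter and the GC correction, and 0 with the replicate block and with the replicate block and length correction. Leaving out 1 tumor gave 0 to 2. Dropping wild-type tumor 4 and ΔAgo2 tumor 1 together, an alternative chosen after seeing the data, gave 1 (Zbp1, log2 1.03, adjusted p = 0.0418). The direction of Ddx58, Ifih1, Dhx58, Mavs, Eif2ak2 and Zbp1 held in all 25. That of Adar turned with upper-quartile scaling (-0.040), thinning to the shallowest library (-0.034), the length correction (-0.26), the replicate block with length correction (-0.22), and without wild-type tumor 3 (-0.12), wild-type tumor 4 (-0.036) or ΔAgo2 tumor 2 (-0.086), and leaving out 1 tumor gave -0.12 to 0.21. The cause was not tested.

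The share of all genes tested that were called, 3.49% (560 genes) as reported, was 14.2% with DESeq2's Wald test (2274 genes), 27.9% with voom (4476), 3.24% without a filter (983), 7.19% with the length correction (1154), 0.993% on log2(TPM + 1) (153), 0.694% on log2(TPM + 0.1) (107), 0.256% on log2(TPM + 1) without a filter (77) and 0.541% to 11% when 1 tumor was left out (88 to 1793). Pathway genes called, 3 in the fit reported, were 1 with total counts, 5 with upper quartile, 23 with DESeq2, 34 with voom, 14 without a filter, 6 when thinned, 11 with the length correction, 0 on log2(TPM + 0.1) and on log2(TPM + 1) without a filter, 7 without wild-type tumor 4 and ΔAgo2 tumor 1, and 0 to 15 when 1 tumor was left out.

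The replicate numbers did not pair the tumors: deviations of same-numbered tumors correlated at -0.236, 0.103, -0.0448 and -0.290, and 0 of 8 tumors correlated best with its own number. With the replicate block, 0.436% of genes were called (70), 0 pathway genes and 0 sensors (Zbp1 log2 1.27, adjusted p = 0.0825). The block with the GC correction gave 1.91% (306), 5 pathway genes and Zbp1 at an adjusted p of 0.0338, and the block with the length correction 0.928% and Zbp1 at 0.0557. The 4 ratios did not pass under any alternative run, which says nothing of stability: a single ratio that separates fully reaches only 0.114 after adjustment over 4, and the sign-flip test of 4 pairs cannot go below 0.125. Without 1 tumor, the log2 difference ranged from 1.13 to 1.76 for Ifih1 to Adar, 0.39 to 0.96 for Ddx58 to Mavs, 0.31 to 1.03 for Ifih1 to Dhx58 and 0.54 to 1.15 for Eif2ak2 to Mavs.

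Depth limits wild-type tumor 4 most, where Ifih1 had 20 counts and a count of 0 allows up to 0.380 CPM of the unscaled total.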
